A study of Mus musculus with 162 samples.

Results

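The lipolysis and lipid droplet genes described here are 10 mouse genes: Pnpla2, Lipe, Mgll, Abhd5, G0s2, Plin1, Plin2, Plin4, Plin5 and Cidec. They were found by their symbols in a table of read counts, where they are 10 of 53686 genes, and each symbol matched 1 gene. Pnpla2 (chr7:141455198-141460743), Lipe (chr7:25379527-25398710) and Plin1 (chr7:79720218-79732903) lie on chromosome 7 of the GRCm38 build, and Mgll (chr6:88724412-88828360) and Cidec (chr6:113424634-113435760) on chromosome 6. Abhd5 is at chr9:122351608-122381524, G0s2 at chr1:193272161-193273217 and Plin2 at chr4:86648386-86670060. Plin4 (chr17:56100591-56109803) and Plin5 (chr17:56111601-56117596) are neighbours on the same strand of chromosome 17.

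The study asked how a short-term fast (STF) changes gene expression in many organs of the same animals. Adult C57BL/6J males, 8 to 9 weeks old, lost their food for 2, 8, 12, 18 or 22 h, and the 0 h group ate freely. The start of each fast was set so that every mouse was killed at the same hour, soon after the lights went off. There were 3 mice at each of the 6 times, 18 in all, and each gave 9 organs: olfactory bulb (OB), brain (BRN), cerebellum (CBL), brainstem (BST), stomach (STM), liver (LIV), interscapular brown fat (iBAT), perigonadal white fat (pgWAT) and posterior subcutaneous white fat (psWAT).

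Each of the 162 libraries held the mRNA of 1 organ of 1 mouse. The 5 libraries with totals far below those of their organ (log10 total more than 2 SD below the mean) were left out: BRN 8 h replicate 3, BRN 18 h replicate 1, STM 12 h replicate 3, iBAT 22 h replicate 1 and psWAT 22 h replicate 2. The retained libraries held 3045845 to 27801717 counts, with a median of 8735554. That leaves 18 libraries for OB, CBL, BST, LIV and pgWAT, 17 for STM, iBAT and psWAT, and 16 for BRN. Levels are CPM, a gene's counts over its library's total, scaled alike in all libraries. A gene at 3 counts or fewer was taken to be at the floor, which was at most 0.985 CPM, in the shallowest BRN library. Such floors cover counting error only.

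Organ markers were where the labels put them. Albumin (Alb), made by hepatocytes, was at 46608 to 68282 CPM in LIV. Ucp1, the heat-making protein of brown fat, was at 2329.8 to 7549 CPM in iBAT. Gabra6, a receptor subunit of cerebellar granule neurons, was at 847 to 1113 CPM in CBL. All 7 adipocyte markers of the list used here (Adipoq, Cfd, Fabp4, Lep, Retn, Car3 and Adrb3) were counted, and summed to 12146 to 30883 CPM in iBAT and 9445 to 99682 in pgWAT. Their most abundant gene was Fabp4 in iBAT and Car3 in pgWAT.

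Some white fat libraries went against their labels. The pgWAT library at 22 h, replicate 2, summed to 22361 CPM over the 4 epididymis markers (Crisp1, Adam7, Lcn5 and Defb2), of which Crisp1 made 21799. Its adipocyte markers summed to 9445 CPM, against 51227 to 99682 in the other 17. The epididymis sum was 7534 CPM in pgWAT 18 h replicate 3, 2899 in 2 h replicate 2 and 541 in 22 h replicate 3, with a median of 9.38 over all 18. The 5 hepatocyte markers, led by Alb, summed to 4174 CPM in pgWAT 18 h replicate 2, where the median was 29.8. In psWAT the adipocyte markers summed to 907 to 48416 CPM, with Car3 the most abundant. Ucp1 was at 657 and 439 CPM in psWAT 0 h replicates 1 and 2, and at most 115.1 in the others. The 5 skeletal muscle markers, led by Acta1, reached 30362 CPM in psWAT. In iBAT they ran from 34.3 to 9874 CPM. The psWAT library at 12 h, replicate 3, held 2739.9 CPM of cerebellar granule neuron markers, 649 of them from Gabra6. Within each organ every library was left out in turn, and the adipocyte marker level was a covariate in fits of STM and the fat depots. The part of the other markers in the results was not tested.

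Fat is stored in cells as triglyceride in lipid droplets, and lipolysis releases it as fatty acids and glycerol, above all from fat tissue during a fast. Pnpla2 (adipose triglyceride lipase), Lipe (hormone-sensitive lipase) and Mgll (monoglyceride lipase) take the fatty acids off in turn, Abhd5 activates Pnpla2, and G0s2 inhibits it. Perilipins (the Plin genes) coat the droplet and govern the access of lipases, and Cidec lets droplets merge and grow.

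The lipases were highest in fat. Pnpla2 stood at a mean of 2785 ± 589 in iBAT, 2234 ± 642 in pgWAT, 711 ± 620.4 in psWAT, 101.3 ± 13.3 in STM, 78.4 ± 19.5 in LIV, 35.3 ± 5.33 in BST, 31.7 ± 4.01 in CBL, 27.2 ± 6.45 in BRN and 25.1 ± 4.03 in OB CPM (± SD over all retained libraries of the organ). Fat therefore held far more Pnpla2 mRNA than any brain organ, with STM and LIV between them. Neighbours in this order whose spreads overlapped were iBAT and pgWAT, psWAT and STM, STM and LIV, and the brain organs from BST to OB. Lipe had means of 1750.1 ± 486 in pgWAT, 1008 ± 216 in iBAT, 566 ± 512 in psWAT, 32.2 ± 8.02 in STM, 22.7 ± 3.91 in LIV, 15.4 ± 1.86 in BST, 13.6 ± 1.45 in OB, 11.999 ± 1.73 in CBL and 11.5 ± 4.23 in BRN CPM. It led in pgWAT, and the spreads of iBAT and psWAT, of STM and LIV, and of the brain organs overlapped. Mgll had means of 827 ± 145.3 in iBAT, 812 ± 237 in pgWAT, 278 ± 277 in psWAT, 212 ± 22.7 in LIV, 201 ± 8.99 in OB, 195 ± 23.3 in BRN, 150.3 ± 32.7 in STM, 119.4 ± 11.8 in CBL and 70.4 ± 5.71 in BST CPM. Its range over organs was the narrowest of the lipases, and only pgWAT and psWAT, and CBL and BST, were neighbours with separate spreads.

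The regulators of Pnpla2 differed in how far they reached beyond fat. Abhd5, the activator, had means of 250.4 ± 68.0 in pgWAT, 175 ± 63.9 in iBAT, 76.3 ± 54.8 in psWAT, 51.1 ± 11.6 in STM, 42.4 ± 2.501 in BST, 30.9 ± 3.31 in CBL, 29.8 ± 2.06 in OB, 25.5 ± 4.61 in LIV and 22.8 ± 4.65 in BRN CPM. Its neighbours in that order all overlapped within 1 SD except BST and CBL. G0s2, the inhibitor, had means of 638 ± 358 in iBAT, 516 ± 211 in pgWAT, 182 ± 197 in psWAT, 144.7 ± 96.2 in LIV, 9.03 ± 1.24 in BST, 7.72 ± 1.59 in CBL, 7.08 ± 4.04 in STM, 6.91 ± 1.201 in OB and 4.91 ± 2.38 in BRN CPM. High G0s2 was therefore shared by fat and LIV. The step from LIV to BST was the only one between neighbours larger than their spreads.

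Of the droplet coat genes, Plin1, the main coat protein of fat cells, had means of 1472 ± 471 in pgWAT, 889 ± 120.6 in iBAT, 445 ± 462 in psWAT and 2.96 ± 3.66 in STM CPM. In the other organs its mean was at most 0.268 CPM, and 18 of 18 CBL, 16 of 18 OB, 16 of 18 BST, 15 of 18 LIV and 13 of 16 BRN libraries were at the floor. Every neighbour in the Plin1 order overlapped the next within 1 SD. Plin2, the coat protein of most other cell types, had means of 572 ± 158.6 in iBAT, 368 ± 110.5 in pgWAT, 256 ± 193.1 in psWAT, 190.3 ± 44.5 in LIV, 27.7 ± 9.38 in STM, 20.2 ± 2.16 in OB, 17.7 ± 2.57 in CBL, 16.2 ± 1.64 in BST and 8.12 ± 2.94 in BRN CPM, and LIV and STM, and BST and BRN, were its only neighbours with separate spreads. Plin4, which coats newly formed droplets, had means of 2517 ± 950.2 in pgWAT, 812 ± 797 in psWAT, 526 ± 197 in iBAT, 66.3 ± 35.4 in STM, 50.3 ± 33.5 in LIV, 33.97 ± 17.9 in BST, 17.7 ± 8.96 in BRN, 12.3 ± 6.73 in CBL and 4.09 ± 2.14 in OB CPM. Its spreads were wide in every organ, and iBAT and STM were its only separate neighbours.

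Plin5, which ties droplets to mitochondria in tissues that burn fat, had means of 283 ± 81.1 in iBAT, 60.6 ± 18.6 in LIV, 19.1 ± 25.8 in psWAT, 16.1 ± 4.97 in pgWAT and 2.02 ± 1.201 in STM CPM and at most 1.19 CPM in the brain organs. It was the only one of the 10 genes with its mean in LIV above those of both white depots. The iBAT and LIV spreads were separate, as were those of pgWAT and STM, while LIV and psWAT, and psWAT and pgWAT, overlapped. Cidec had means of 3493 ± 898 in pgWAT, 1251 ± 289 in iBAT, 862 ± 794 in psWAT, 14.8 ± 6.24 in STM and 3.49 ± 1.56 in LIV CPM, and at most 0.164 CPM in the brain organs, where it was at the floor in every CBL and OB library. Its spreads overlapped between iBAT and psWAT and among the brain organs, and were separate at every other step.

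Between genes, levels were compared per kilobase of merged exons, since exonic length ran from 871 bases in G0s2 to 5956 in Abhd5. In LIV the order was G0s2 (166.1 CPM per kb), Plin2 (54.2), Mgll (41.8), Plin5 (29.1) and Pnpla2 (25.97), with the other 5 at 8.70 or less. The iBAT order began with Pnpla2 (922), G0s2 (732) and Cidec (674) and ended with Abhd5 (29.5). Per kilobase, pgWAT was led by Cidec (1882), then Pnpla2 (739.8) and G0s2 (592). Mgll was first in all 4 brain organs, from 13.9 CPM per kb in BST to 39.6 in OB, and Pnpla2 came next at 8.31 to 11.7.

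**Figure D1:**
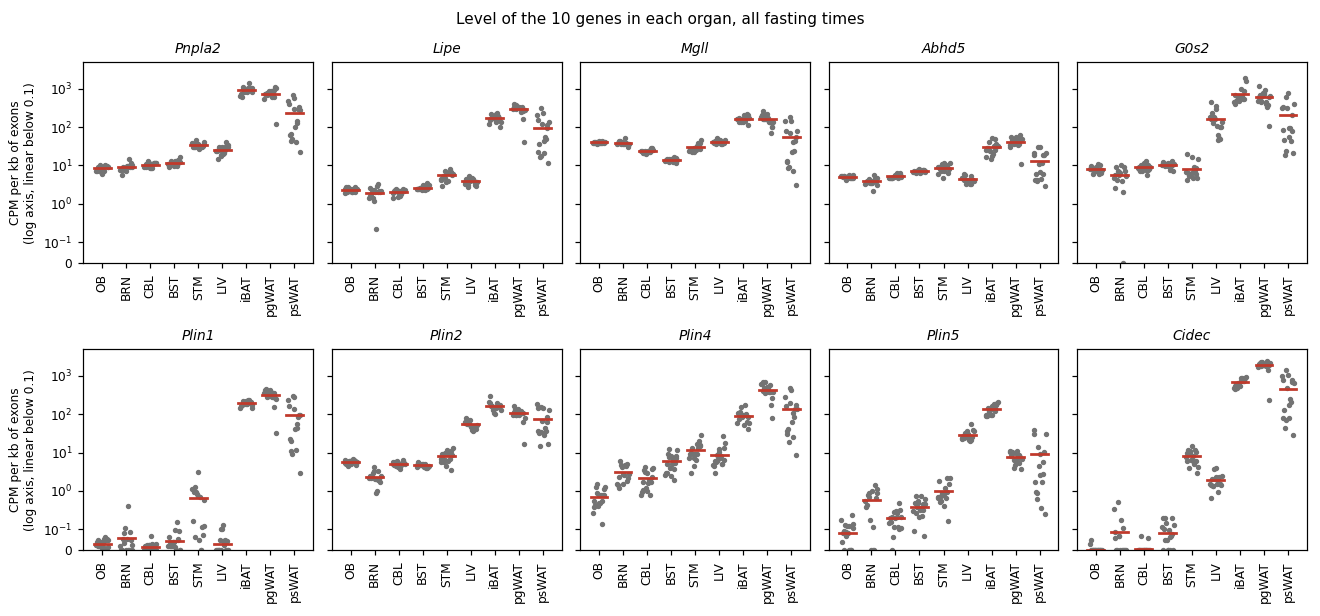
Level of each gene in CPM per kilobase of exons (log axis, linear below 0.1) in every retained library of the 9 organs, with 1 point per library and a bar at the mean. Every gene has its highest mean in a fat depot, and psWAT libraries spread widely.

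Brown fat was compared with white fat to see how the depots differ, with the 6 times weighted equally and iBAT set against the mean of pgWAT and psWAT. Calls are genes with an adjusted p under 0.05 in edgeR's quasi-likelihood test, adjusted by Benjamini-Hochberg over all genes kept. Of the 10 genes, 9 were called, 8 of them higher in brown fat, beside 70.0% of 18864 genes called. Plin5 had the largest difference, at a log2FC of 5.13 ± 0.27 (SE; adjusted p = 2.36e-19), followed by Pnpla2 at 2.07 ± 0.22 and G0s2 at 2.04 ± 0.22. Mgll differed by 1.77, Plin2 by 1.71, Plin1 by 1.18, Abhd5 by 1.14 and Lipe by 0.91. Plin4 was lower in brown fat, at -0.54 (adjusted p = 0.0478). Cidec, at 0.48 (adjusted p = 0.0823), was not called. The median log2FC of all genes was -0.22. These differences are from the mean of both white depots. The mean CPM of Lipe, Plin1 and Abhd5 in iBAT (1008 ± 216, 889 ± 120.6 and 175 ± 63.9) was below that in pgWAT (1750.1 ± 486, 1472 ± 471 and 250.4 ± 68.0), as it was for Plin4 and Cidec, and iBAT against pgWAT alone was not tested.

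How the white depots themselves compare matters for these values, since psWAT libraries held fewer adipocyte transcripts. They also held more Cd79a, a gene of B lymphocytes, at 19.2 to 626 CPM against 0.664 to 4.30 in pgWAT, and the part of lymphocyte content was not tested. Of the 10 genes, 9 were called higher in pgWAT than in psWAT, beside 73.5% of 18864 genes called. Cidec differed most, at a log2FC of 2.62 ± 0.31 (adjusted p = 2.04e-09), then Plin1 at 2.48 ± 0.30. Pnpla2, Lipe, Mgll, Abhd5, G0s2 and Plin4 lay between 2.07 and 2.23, and Plin2 at 0.89. Plin5, at 0.61 (adjusted p = 0.0755), was not called by edgeR, and was by DESeq2 at 0.64 (adjusted p = 0.0449). In bulk tissue, fewer cells of a type and less RNA per cell cannot be told apart.

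The brown against white differences depended on how libraries were scaled. Library totals alone, without TMM factors, moved the median of all genes by -0.75 in this comparison and by -0.18 in pgWAT against psWAT. With totals alone Lipe (0.17), Abhd5 (0.41) and Plin1 (0.45) were no longer called, and Cidec turned to -0.25. With the animal as a block the Plin4 call was lost (-0.43; adjusted p 1.27e-05 to 0.162 over 6 alternatives) and Cidec was called (0.71; adjusted p 0.0298 to 0.368 over 6 alternatives). The block also called Plin5 between the white depots, at 0.90 (adjusted p 0.0201 to 0.169 over 6 alternatives). Without psWAT 12 h replicate 3 Plin4 was at -0.53 and not called.

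Fasting was read in each organ from 4 comparisons within 1 fit of its 6 times. The late fast joins 18 h and 22 h, when food was gone for at least part of the night before, and the daytime fast joins 8 h and 12 h. Each was compared with 0 h, and the late fast also with the daytime fast, while a joint test asked for any difference between the 6 times. Comparisons with 0 h share the same 3 control libraries and are not independent. Overlap between groups is read on CPM from library totals, while log2FC come from fits with TMM factors, so that they can differ. Genes kept in an organ reached the CPM of 10 counts in its median library in at least 3 libraries, which left 79 of the 90 pairs of gene and organ. Of these 79 pairs, 11 were called in late fast against 0 h, 2 in daytime fast against 0 h, 3 in late against daytime fast and 7 in the joint test. The share of all genes called per organ was 0.0 to 20.9% in late fast against 0 h and 0.0 to 8.89% in daytime fast against 0 h. It was 0.0 to 29.3% in late against daytime fast and 0.0 to 29% in the joint test, so that the pooled counts have no single background.

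In liver, Plin2 and G0s2 fell in the late fast. These were 2 of 9 genes tested, beside 10.6% of 14023 genes called. Plin2, the main droplet coat gene of hepatocytes, was at 215, 209 and 283 CPM at 0 h and from 139.4 to 178 CPM with a median of 160.97 in the 6 late libraries. Every late library lay below every 0 h library, for a log2FC of -0.65 ± 0.13 (SE; edgeR adjusted p = 0.00318; 3.57e-05 to 0.0914 over 8 alternatives). G0s2 was at 163, 143.4 and 402 CPM at 0 h, 41.3, 45.4 and 42.5 at 18 h and 87.2, 85.9 and 121.3 at 22 h. The 18 h values were tightly grouped and lowest, and no late library reached a 0 h one. Its log2FC was -1.95 ± 0.44 (adjusted p = 0.0172; 2.26e-48 to 0.179 over 8 alternatives), and -1.33 (adjusted p = 0.102) without LIV 0 h replicate 3, the only library whose removal ended the call. Without the low count filter its adjusted p was far smaller than in any other setting, and that setting also gave the lowest of the late fast ranges of Plin2, Pnpla2 and Plin4.

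Plin2 was already lower by day. At 8 h it was at 236, 182 and 243 CPM and at 12 h at 163.6, 137.96 and 129, so that the 12 h libraries lay below all 3 at 0 h and the 8 h libraries overlapped them. It fell by 0.47 on the log2 scale in daytime fast against 0 h (adjusted p = 0.0270; 0.00940 to 0.0640 over 6 alternatives), 1 of 9 genes beside 8.89% of all genes. This call was lost without LIV 0 h replicate 1, 2 or 3, 8 h replicate 2 or 12 h replicate 2, with log2FC from -0.54 to -0.32 and adjusted p up to 0.140. It was also lost with sequencing lane as a term in the fit, and with library totals alone. In late against daytime fast edgeR called 0 of 9 genes beside 2.7% of all genes, with 5 at an unadjusted p under 0.05, and DESeq2 called 2 (Pnpla2 and G0s2) beside 880 genes in all. The joint test called 1 of 9, Plin2 (adjusted p = 0.00423), beside 16.0% of all genes.

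Pnpla2, which G0s2 inhibits, was at 70.8, 69.7 and 44.7 CPM at 0 h and from 76.97 to 120.7 CPM with a median of 94.9 late. All 6 late libraries were above the 3 at 0 h in these CPM. Divided by the TMM factors of the fit, 18 h replicate 1 fell within the 0 h range of Pnpla2. The log2FC of Pnpla2, 0.56 ± 0.20, did not pass (adjusted p = 0.0773; 0.00128 to 0.794 over 8 alternatives). Plin4 was at 26.6, 26.2 and 17.3 CPM at 0 h, 29.5, 28.5 and 153.4 at 18 h and 37.4, 76.6 and 103.9 at 22 h. The late libraries were all higher in CPM but far apart, with 18 h replicate 3 the highest. Divided by the same TMM factors, 18 h replicate 1 fell within the 0 h range of Plin4 too. Its log2FC of 1.53 ± 0.56 did not pass in edgeR (adjusted p = 0.104; 8.81e-23 to 0.779 over 8 alternatives). DESeq2 called both genes, beside 1766 genes in all, as did edgeR with no filter on low counts. At 2 h both were already above all 3 at 0 h, with Pnpla2 at 93.5, 74.6 and 81.6 CPM and Plin4 at 34.2, 32.4 and 49.9. The same 18 h library also held the highest Plin5, at 118.7 CPM against 41.8 to 78.9 in the other 17. Mgll (-0.10), Lipe (-0.18), Abhd5 (-0.33), Plin5 (0.36) and Cidec (0.39) were not called.

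Sequencing lane ran along with time in liver: the 0 h and 2 h libraries were on lane 1, those of 12 h to 22 h on lane 2, and 8 h on both. With lane as a term in the fit the log2FC of Plin2 was -0.94 (adjusted p = 0.0914) and that of G0s2 -2.76 (adjusted p = 0.179). Both were larger than without the term and neither was called, Pnpla2 changed sign to -0.21, and over all genes the calls went from 1484 to 21. Lane and time therefore cannot be told apart well by this design. The adipocyte marker sum, of which Car3 made the largest part, was 4306, 4727 and 2780.4 CPM at 0 h and 1857 to 3147 late. Mitochondrial genes took 7.28 to 10.2% of the counts at 0 h and 4.24 to 8.82% late, with overlap. The part of both in the result was not tested.

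Brown fat had the most calls: G0s2, Plin5 and Cidec rose in the late fast and Plin2 fell, 4 of 10 genes beside 20.9% of 14529 genes. G0s2 was at 395, 343 and 589.8 CPM at 0 h, 468, 469 and 751 at 18 h and 1643 and 1403 at 22 h. The 22 h libraries stood far above the rest, while those at 18 h overlapped the 0 h group. Its log2FC was 0.94 ± 0.21 (SE; adjusted p = 0.00770; 1.99e-04 to 0.828 over 12 alternatives). Plin5 was at 200.03, 190.2 and 185 CPM at 0 h, 292, 253 and 359 at 18 h and 408 and 445 at 22 h, with no overlap between 0 h and late. The libraries at 2 h (302, 257 and 243 CPM) and 12 h (335, 299.9 and 383 CPM) were also above all 3 at 0 h, and those at 8 h (265, 194 and 195 CPM) overlapped them. Divided by the TMM factors of the fit, 2 h replicate 3 fell within the 0 h range of Plin5. The late log2FC of Plin5 was 0.75 ± 0.17 (adjusted p = 0.00904; 1.49e-04 to 0.380 over 12 alternatives).

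Cidec, the droplet fusion gene, was at 888, 862 and 1017 CPM at 0 h, 1376, 1359.6 and 1456 at 18 h and 1639.7 and 1756 at 22 h. Every late library was above every 0 h library, for a log2FC of 0.60 ± 0.14 (adjusted p = 0.00923; 7.44e-06 to 0.293 over 12 alternatives). The Cidec values at 8 h (1206, 1069 and 1022 CPM) and 12 h (1609, 1329 and 1596 CPM) were also above all 3 at 0 h. Divided by the TMM factors, 8 h replicate 3 fell within the 0 h range. The Cidec values at 2 h (1160, 918 and 1009 CPM) overlapped the 0 h range. Plin2 was at 728, 671 and 1059 CPM at 0 h, 558, 587 and 529 at 18 h and 593 and 464 at 22 h. All late libraries were lower than all 0 h libraries, for a log2FC of -0.71 ± 0.18 (adjusted p = 0.0117; 0.00224 to 0.149 over 12 alternatives). Without iBAT 0 h replicate 2 the calls of G0s2 (0.80; adjusted p = 0.0607) and Cidec (0.57; adjusted p = 0.0523) were lost. Plin2 and Plin5 kept theirs when any of the 17 libraries was left out.

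Plin2 was called by day already, while G0s2 was called only late. Plin2 was at 561, 573 and 459 CPM at 2 h, 515, 368 and 363 at 8 h and 539.9, 496 and 668 at 12 h, all under the 3 values at 0 h. In daytime fast against 0 h it was the 1 gene called of 10, at -0.87 ± 0.17 (adjusted p = 0.0160; 1.37e-04 to 0.0597 over 8 alternatives), beside 0.819% of all genes. That call was lost without iBAT 0 h replicate 1 or 3, or 8 h replicate 2 or 3 (log2FC -0.98 to -0.74 over all refits). G0s2 was the 1 gene of 10 called in late against daytime fast, at 0.68 ± 0.17 (adjusted p = 0.0136), beside 23.3% of all genes, and without iBAT 22 h replicate 2 it was not called (adjusted p = 0.0769). The joint test called the same 4 genes as the late fast, beside 29% of all genes, with adjusted p of 5.34e-04 for G0s2, 0.00647 for Cidec, 0.00819 for Plin5 and 0.00855 for Plin2.

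Pnpla2 was at 1903, 2162 and 1813 CPM at 0 h, 2939.8, 3028 and 3216 at 18 h and 2528 and 3104 at 22 h in brown fat. All 5 late libraries were above the 0 h ones, as were all 9 of 2 h (3392, 2919 and 2481 CPM), 8 h (2766, 2642 and 2581 CPM) and 12 h (2494, 3080.3 and 4296 CPM). Divided by the TMM factors (0.850, 0.893 and 1.03 at 0 h, 1.07 at 2 h replicate 3), 2 h replicate 3 fell within the 0 h range of Pnpla2. The late log2FC of 0.43 ± 0.18 did not pass in edgeR (adjusted p = 0.0882; 0.0273 to 0.398 over 12 alternatives). DESeq2 called it at 0.45 (adjusted p = 0.0430), beside 3949 genes in all, and edgeR with library totals alone at 0.58 (adjusted p = 0.0273). Lipe (-0.17), Mgll (-0.01), Abhd5 (0.39), Plin1 (0.04) and Plin4 (-0.43) were not called and their groups overlapped.

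The 22 h libraries of brown fat also stood apart in other ways. Mitochondrial genes took 5.47 and 11.8% of their counts, against 12.9 to 36.2% in the other 15. The 0 h libraries, the baseline of these comparisons, were at 33.1, 36.2 and 19.5%, and no library of another time was above 26.6%. The 7 adipocyte markers, led by Fabp4, summed to 30883 and 28559.9 CPM at 22 h, 19161, 20379 and 20345 at 18 h and 15316, 12146 and 16588 at 0 h. Among them Adipoq (0.81; adjusted p = 0.00441) and Cfd (1.38; adjusted p = 0.00151) rose in the late fast. Of the other 5, Fabp4 (0.51), Car3 (0.33), Retn (0.90), Lep (-1.08) and Adrb3 (-0.55) were not called. The part of the mitochondrial share was not tested, and that of the adipocyte markers only by a covariate. The 22 h libraries were on lanes 1 and 3, which held no brown fat library of another time, and all others on lanes 2, 4, 5 and 8. Of the 17, only 22 h replicate 2 had a library name of another series, and its log10 total was 1.99 SD below the mean, near the limit for leaving a library out. A lane term kept the calls of G0s2 (1.09), Plin5 (0.78), Cidec (0.60) and Plin2 (-0.61), but lane and 22 h cannot be told apart. In fits chosen after seeing the data, 18 h alone gave 0.20 for G0s2, 0.48 for Plin5, 0.44 for Cidec and -0.70 for Plin2, none called. With the adipocyte marker level as a covariate, also added later, G0s2 (1.02), Plin5 (0.99) and Cidec (0.66) stayed called and Plin2 (-0.69) did not. As a percentage of the Adipoq level of the same library, late and 0 h libraries overlapped for these 3 genes. Plin5 was at 16.5 to 27.8% at 0 h and 16.9 to 27.1% late, Cidec at 90.8 to 125.96% and 67.9 to 110.1%, and G0s2 at 45.0 to 52.6% and 34.4 to 69.9%. Over the 17 libraries their Pearson r with Adipoq, on log2 CPM, was 0.795, 0.865 and 0.873. Plin2 was at 82.9 to 98.0% at 0 h and 23.1 to 43.01% late, without overlap. The late fast and adipocyte content cannot be told apart for the 3 genes that rose. In another fit each library's trend on exonic length, of log2 CPM as a deviation from the gene's mean, was taken out before testing. It left G0s2 at 0.46, Plin5 at 0.47 and Cidec at 0.29, none called, and Plin2 at -0.73, called.

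**Figure D2:**
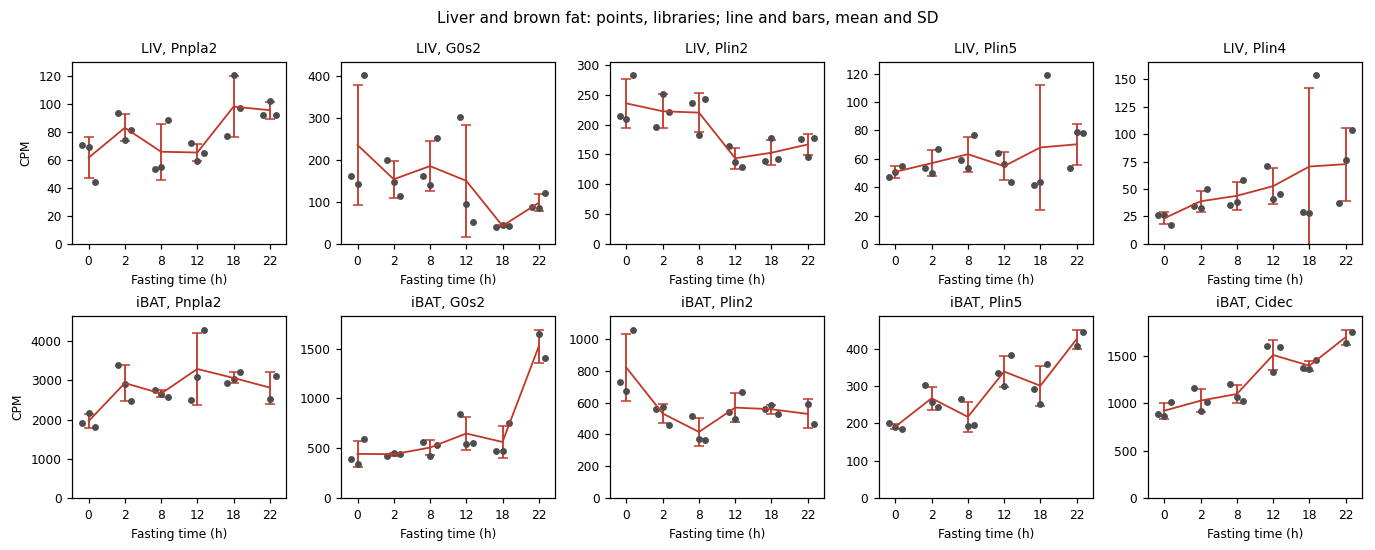
CPM against fasting time in hours for 5 genes in liver (top) and 5 in brown fat (bottom), with 1 point per retained library and a line and bars at the mean and SD. The lower SD bar of liver Plin4 at 18 h is clipped at 0, G0s2 is low at 18 h in liver, and it is high at 22 h in brown fat.

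In stomach, Plin4 and Lipe rose in the late fast, 2 of 10 genes beside 15.3% of 16281 genes. Plin4 was at 41.2, 54.1 and 17.2 CPM at 0 h and from 76.4 to 160.8 CPM with a median of 92.8 in the 6 late libraries. No late library was as low as any at 0 h, for a log2FC of 1.33 ± 0.29 (SE; adjusted p = 0.00962; 2.68e-04 to 0.773 over 10 alternatives). Lipe was at 26.4, 24.0003 and 17.2 CPM at 0 h and from 32.5 to 47.8 CPM with a median of 37.1 late. Its groups did not overlap either, for a log2FC of 0.60 ± 0.19 (adjusted p = 0.0450; 0.0256 to 0.967 over 10 alternatives). Already at 2 h Lipe was at 30.6, 30.4 and 41.6 CPM, above all 3 at 0 h, and Plin4 at 55.5, 76.8 and 51.6, so that each reached from near the 0 h range into the late one. Divided by the TMM factors, Lipe at 2 h replicate 1 fell within the 0 h range. The Plin4 call was lost without STM 0 h replicate 3, at 1.03 (adjusted p = 0.0527). The Lipe call was lost in 11 of 17 refits that left out 1 library. The libraries were STM 0 h replicates 2 and 3, all 3 at 2 h, 8 h replicate 1, all 3 at 18 h, and 22 h replicates 1 and 3. Over all 17 refits the log2FC of Lipe ran from 0.50 to 0.76, with adjusted p up to 0.1797.

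Plin4 in stomach was also higher late than by day. At 8 h it was at 25.5, 41.5 and 52.6 CPM and at 12 h at 37.9 and 52.2, within the range of the 0 h libraries. In late against daytime fast it was the 1 gene called of 10, at 1.17 ± 0.25 (adjusted p = 0.0260; 7.21e-04 to 0.204 over 8 alternatives), beside 3.96% of all genes. The call was lost without STM 8 h replicate 1, 12 h replicate 1 or 2, 18 h replicate 1 or 3, or 22 h replicate 3 (log2FC 1.03 to 1.26 over all refits). In daytime fast against 0 h edgeR called 0 of 10 beside 0.0% of all genes, with 0 at an unadjusted p under 0.05 and 0 by DESeq2. The joint test called Plin4 alone, 1 of 10 (adjusted p = 0.0250), beside 6.55% of all genes.

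Other features of the stomach libraries differed between late and 0 h. The 5 skeletal muscle markers, led by Acta1, summed to 1517, 1375 and 219 CPM at 0 h and 1973 to 3997 late, and mitochondrial genes took 2.83 to 9.57% and 10.996 to 24.4% of the counts. The 6 gastric epithelium markers, led by Gkn1, summed to 56325, 40226 and 90954 CPM at 0 h and 13102 to 47992 late. The 3 neuron markers, led by Snap25, summed to 7.14 to 14.7 CPM at 0 h and 23.9 to 52.1 late. For the 5 brown adipocyte markers, led by Cox8b, these were 7.44 to 10.2 and 10.8 to 31.7 CPM. The 4 keratinocyte markers, led by Krt10, overlapped, at 1461 to 6371 CPM at 0 h and 230.5 to 9820 late. The 7 adipocyte markers, led by Car3, summed to 259, 159.8 and 325 CPM at 0 h and 148.7 to 406 late. Of them Lep (-6.08; adjusted p = 0.00520), Retn (-4.46; adjusted p = 0.00878) and Cfd (-2.90; adjusted p = 0.0348) fell late, and Adipoq (-2.98), Fabp4 (-0.29), Car3 (0.63) and Adrb3 (0.74) were not called. Plin1 was at 5.28, 0.774 and 4.34 CPM at 0 h, 0, 0 and 0.527 at 18 h and 0.344, 0.572 and 2.63 at 22 h, and was called by DESeq2, beside 3344 genes in all, but not by edgeR (adjusted p = 0.0591; 0.0334 to 0.725 over 10 alternatives). The part of the muscle, epithelial, neuron, brown adipocyte, keratinocyte and mitochondrial levels in the results was not tested, and that of the adipocyte markers only by a covariate.

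Lane ran along with time in stomach as well, with 0 h and 2 h on lane 5 and 12 h to 22 h on lane 6. With a lane term Plin4 was at 0.85 (adjusted p = 0.773) and Lipe at 0.12 (adjusted p = 0.967), and lane and time cannot be told apart for either in the late fast against 0 h. Within lane 6 all late libraries were above those of 12 h for Plin4, whose late against daytime log2FC with the lane term was 1.02 (adjusted p = 0.204). In a fit with the adipocyte marker level, added once the data were seen, Lipe was at 0.74 (adjusted p = 0.0532) and Plin4 at 1.28 (adjusted p = 0.0364). Mgll was at 123.8, 136.1 and 135.8 CPM at 0 h and from 139.7 to 228 CPM with a median of 183.2 late. Its late libraries were all higher in these CPM. Divided by the TMM factors (0.841 at 0 h replicate 3, 1.07 at 18 h replicate 1) the groups overlapped. The log2FC of Mgll, 0.31 ± 0.16, did not pass in edgeR (adjusted p = 0.203). Pnpla2 (-0.16), Abhd5 (0.01), G0s2 (-0.59), Plin2 (0.11), Plin5 (0.01) and Cidec (-0.38) were not called.

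In the brain organs Pnpla2 was the gene called most often. In OB it rose in the late fast, 1 of 7 genes tested beside 1.95% of 16742 genes. It was at 21.7, 21.3 and 23.04 CPM at 0 h and from 27.6 to 30.7 CPM with a median of 28.98 in the 6 late libraries. The late range was narrow and wholly above 0 h, for a log2FC of 0.40 ± 0.09 (SE; adjusted p = 0.0374; 0.00633 to 0.536 over 8 alternatives). The libraries at 8 h (21.5, 20.9 and 18.05 CPM) and 12 h (26.6, 21.9 and 21.7 CPM) stayed near the 0 h level, while those at 2 h (27.7, 22.97 and 30.8 CPM) reached into the late range. In late against daytime fast the log2FC was 0.42 ± 0.08 (adjusted p = 8.61e-04; 2.38e-05 to 0.00271 over 6 alternatives), 1 of 7 beside 29.3% of all genes, and the call held whichever library was left out.

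The joint test in OB also called Pnpla2, 1 of 7 (adjusted p = 0.00632), beside 15.4% of all genes. In daytime fast against 0 h edgeR called 0 of 7 beside 0.0% of all genes, with 0 at an unadjusted p under 0.05 and 0 by DESeq2. The late call against 0 h was lost without OB 0 h replicate 1 or 2, 18 h replicate 1, or 22 h replicate 1 or 3 (log2FC 0.38 to 0.43 and adjusted p up to 0.185 over all refits). The 0 h and 2 h libraries of OB were on lane 3 and those of 12 h to 22 h on lane 4, and with a lane term the log2FC was 0.64 (adjusted p = 0.536). Lane and time cannot be told apart for the late fast against 0 h. Late against daytime fast the lane term left 0.50 (adjusted p = 0.00271), and within lane 4 all 6 late libraries were above the 3 of 12 h and 8 h replicate 3. With 0 h and 2 h together as the fed group it was 0.25 and not called.

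In BRN, Pnpla2 and Plin4 rose in the late fast, 2 of 8 genes tested beside 11.2% of 16749 genes. Pnpla2 was at 22.7, 22.9 and 17.02 CPM at 0 h, 45.6 and 27.5 at 18 h and 34.3, 30.6 and 28.3 at 22 h. The groups did not overlap, and the log2FC was 0.89 ± 0.23 (adjusted p = 0.0232; 0.00252 to 0.590 over 9 alternatives). Plin4 was at 8.46, 8.29 and 6.65 CPM at 0 h, 25.3 and 10.2 at 18 h and 29.8, 12.9 and 15.5 at 22 h. Its late libraries were all higher and widely spread, for a log2FC of 1.44 ± 0.43 (adjusted p = 0.0397; 4.26e-04 to 0.524 over 9 alternatives). At 2 h Plin4 was already at 13.1, 34.2 and 27.1 CPM, and with 0 h and 2 h together as the fed group its log2FC was 0.57 and not called. The BRN library names came in 2 series, with all 3 libraries of 0 h in the first and all 5 late ones in the second. Both series occurred at 2 h and at 12 h, but the part of series in the results was not tested.

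Both BRN calls rested on few libraries. Pnpla2 was lost without BRN 0 h replicate 1, 2 or 3, 18 h replicate 2, or 22 h replicate 1 or 2 (log2FC 0.62 to 1.10 over all refits). Plin4 was lost without any of the same 6 or 2 h replicate 3 (log2FC 0.98 to 1.75 over all refits). With all 18 libraries Pnpla2 was at 0.70 and Plin4 at 1.30, and with a lane term over its 5 lanes at 1.01 and 1.92, none of them called. Neuron markers (Snap25, Syt1 and Rbfox3, led by Snap25) summed to 3926, 3695 and 3318 CPM at 0 h and 1639 to 3559.7 late, and mitochondrial genes took 3.48 to 6.82% and 6.82 to 11.8% of the counts. The 4 erythroid markers, led by Hbb-bs, summed to 50.01, 112.9 and 95.5 CPM at 0 h and 141.7 to 442 late, and the 5 pancreatic acinar markers, led by Pnlip, to 2.71, 6.83 and 3.16 and 8.69 to 39.01 CPM. The part of all these in the results was not tested. In daytime fast against 0 h edgeR called 0 of 8 beside 8.16% of all genes, with 1 at an unadjusted p under 0.05, and DESeq2 called 1 (Plin4) beside 2522 genes in all. In late against daytime fast the edgeR count was 0 of 8 beside 0.0%, with 4 unadjusted and 0 by DESeq2. The joint test gave 0 of 8 beside 0.00597%, with 2 unadjusted and 1 (Pnpla2) by DESeq2, which called 1577 genes in all.

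In CBL and BST edgeR called no member. In CBL edgeR called 0 of 7 in the late fast against 0 h beside 0.344% of 15976 genes, with 3 at an unadjusted p under 0.05 and 0 by DESeq2. Pnpla2 was at 27.5, 29.3 and 28.2 CPM at 0 h and from 33.7 to 35.3 CPM with a median of 34.2 late in CBL. Its groups did not overlap, and the log2FC of 0.27 ± 0.09 did not pass (adjusted p = 0.144; 0.0977 to 0.403 over 7 alternatives), and the 2 h libraries (32.0, 32.9 and 39.8 CPM) were above 0 h too. Plin4 in CBL was at 4.46, 5.48 and 6.09 CPM at 0 h and from 4.55 to 23.1 CPM with a median of 11.997 late, with overlap, at a log2FC of 1.24 ± 0.39 (adjusted p = 0.160). The daytime fast against 0 h gave 0 of 7 beside 0.0%, with 2 unadjusted and 0 by DESeq2. Late against daytime fast gave 0 of 7 beside 0.795%, with 4 unadjusted and 1 (Mgll) by DESeq2, which called 331 genes in all. The joint test gave 0 of 7 beside 2.99%, with 5 unadjusted and 1 (Plin4) by DESeq2, which called 1772 genes in all. Without CBL 8 h replicate 1 late against daytime fast called Pnpla2 and Mgll, at 0.31 and 0.24, and calls over all genes went from 127 to 472.

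In BST edgeR called 0 of 8 in the late fast against 0 h beside 0.0596% of 16784 genes, with 2 at an unadjusted p under 0.05 and 0 by DESeq2. Pnpla2 was at 33.3, 27.7 and 30.6 CPM at 0 h and from 29.6 to 49.5 CPM with a median of 38.04 late, with overlap, at a log2FC of 0.36 ± 0.11 (adjusted p = 0.255; 0.0101 to 0.403 over 7 alternatives). The daytime fast against 0 h gave 0 of 8 beside 0.00596%, with 1 unadjusted and 0 by DESeq2. Late against daytime fast gave 0 of 8 beside 0.328%, with 1 unadjusted and 0 by DESeq2. The joint test gave 0 of 8 beside 0.107%, with 2 unadjusted and 1 (Plin4) by DESeq2, which called 219 genes in all. All CBL libraries were on lane 3 and all BST libraries on lane 4.

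White fat gave no edgeR call in either depot. In pgWAT 0 of 10 were called in the late fast against 0 h beside 0.00609% of 16412 genes, with 2 at an unadjusted p under 0.05 and 1 (Mgll) by DESeq2, which called 1191 genes in all. Mgll was at 934, 1064 and 1330.2 CPM at 0 h, 675, 684 and 360.0 at 18 h and 509, 512 and 677 at 22 h. Every late library was below every 0 h library, and the log2FC of -0.84 ± 0.23 did not pass in edgeR (adjusted p = 0.101; 0.00733 to 0.720 over 9 alternatives). In a fit with the adipocyte marker level, added once the data were seen, Mgll was called at -0.79 (adjusted p = 0.0356). Plin4 was at 3457, 3504 and 3943 CPM at 0 h, 2178, 3388 and 989 at 18 h and 1499.7, 449 and 2253 at 22 h. It was lower in every late library in these CPM. Divided by the TMM factors (1.11 at 0 h replicate 1, 0.979 at 18 h replicate 2) the groups overlapped. The log2FC of Plin4 was -0.90 ± 0.42 in edgeR (adjusted p = 0.230; 0.0688 to 0.840 over 9 alternatives). All pgWAT libraries of 0 h were on lane 5 and all late ones on lane 6, so that lane and late fast cannot be told apart well. With a lane term Mgll was at -0.81 (adjusted p = 0.720) and Plin4 at -0.87 (adjusted p = 0.840).

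The other 8 genes overlapped between 0 h and the late fast in pgWAT, with log2FC from -0.73 (G0s2) to 0.40 (Pnpla2). The library rich in epididymis markers, 22 h replicate 2, was the lowest for both Pnpla2, at 363 CPM against 1607 to 3303, and Cidec, at 444 CPM against 2606 to 4661. Without it edgeR again called 0 of 10. The daytime fast against 0 h gave 0 of 10 beside 0.0%, with 0 unadjusted and 0 by DESeq2. Late against daytime fast gave 0 of 10 beside 0.00609%, with 1 unadjusted and 0 by DESeq2. The joint test gave 0 of 10 beside 0.0%, with 1 unadjusted and 1 (Mgll) by DESeq2, which called 550 genes in all.

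In psWAT 0 of 10 were called in the late fast against 0 h beside 0.0% of 16721 genes, with 0 at an unadjusted p under 0.05 and 0 by DESeq2. Pnpla2 was at 1479, 1207 and 182.97 CPM at 0 h, 427, 903 and 1023 at 18 h and 69.4 and 830.4 at 22 h. Mice of the same time were far apart, and late and 0 h libraries overlapped. Over the 17 libraries the highest Pnpla2 value was 30.1 times the lowest, Plin1 104.7 times and Cidec 50.1 times. Divided by the Adipoq level of the same library, the highest over lowest ratios were 2.99 for Pnpla2, 2.21 for Plin1 and 1.85 for Cidec. They were 3.35 for Lipe and 3.24 for Mgll, and larger for Plin4 (5.85), Abhd5 (7.46, from 10.7 undivided), G0s2 (7.91), Plin2 (8.77, from 12.49) and Plin5 (9.65). The part of adipocyte content in this spread was not tested. The daytime fast against 0 h gave 0 of 10 beside 0.0%, with 1 unadjusted and 0 by DESeq2. Late against daytime fast gave 0 of 10 beside 0.0%, with 0 unadjusted and 0 by DESeq2. The joint test gave 0 of 10 beside 0.0%, with 9 unadjusted, and DESeq2 called 9, all but Abhd5, beside 2053 genes in all.

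**Figure D3:**
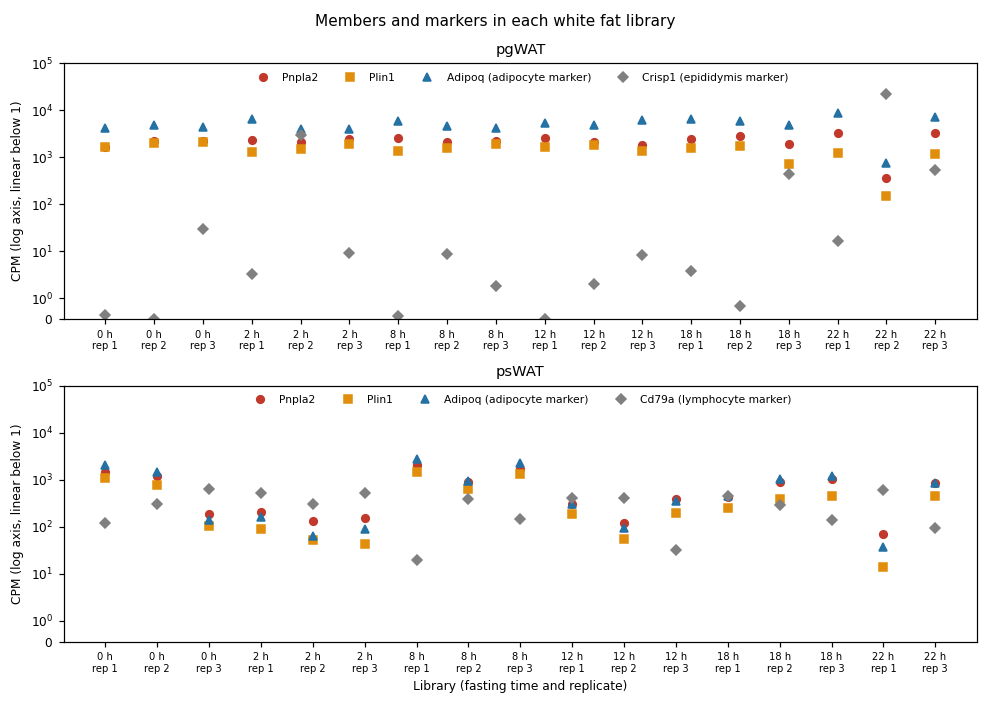
CPM (log axis, linear below 1) of Pnpla2, Plin1, the adipocyte marker Adipoq and a marker of another tissue in every retained library of pgWAT (top, Crisp1 of the epididymis) and psWAT (bottom, Cd79a of lymphocytes), by fasting time and replicate. In pgWAT 1 library at 22 h has high Crisp1 and low adipocyte genes, and in psWAT Pnpla2 and Plin1 are low where Adipoq is low.

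**Figure D4:**
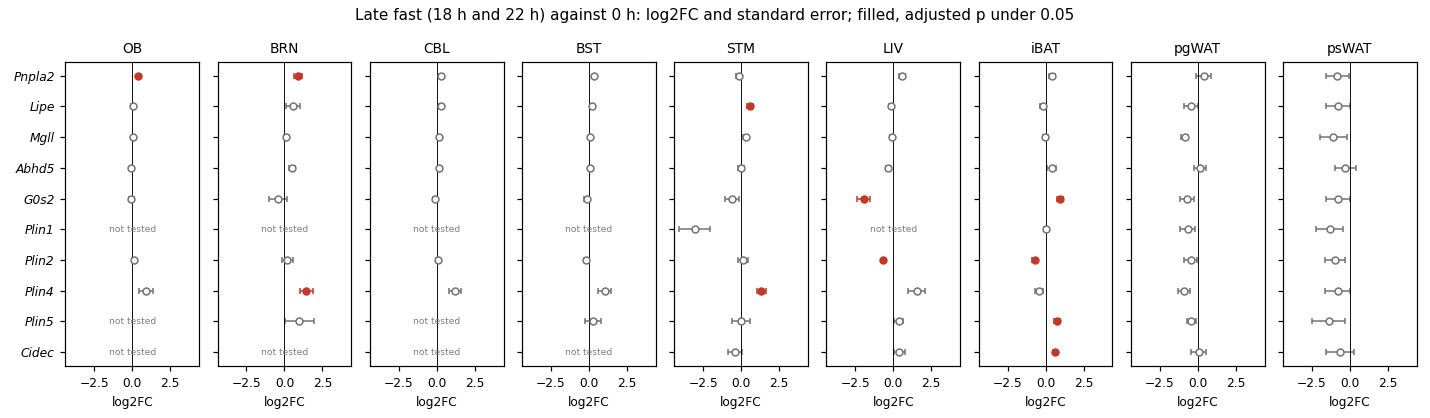
log2FC of the late fast (18 h and 22 h) against 0 h with its standard error for each gene in each of the 9 organs, filled where the edgeR adjusted p was under 0.05. The 11 filled points are spread over OB, BRN, STM, LIV and iBAT, and genes under the count filter in an organ are marked as not tested.

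Whether the late fast effect differed between organs was tested directly in 1 fit of LIV, STM, iBAT, pgWAT and psWAT. Between liver and the mean of the fat depots edgeR called 0 of 10 beside 0.251% of 20285 genes, with 2 at an unadjusted p under 0.05 and 1 (Plin4) by DESeq2, which called 348 genes in all. Plin4 had a log2 difference of 2.24 ± 0.65 (adjusted p = 0.117; 0.0209 to 0.141 over 6 alternatives) and G0s2 of -1.75 ± 0.60 (adjusted p = 0.201; 0.0947 to 0.309 over 6 alternatives). Between brown and white fat it called 0 of 10 beside 1.76%, with 2 unadjusted and 0 by DESeq2, and G0s2 (1.69 ± 0.68) and Plin5 (1.65 ± 0.69) lay farthest from 0. Between pgWAT and psWAT the count was 0 of 10 beside 0.0246%, with 0 unadjusted and 0 by DESeq2. Between STM and LIV it was 0 of 10 beside 0.0838%, with 0 unadjusted and 0 by DESeq2. The opposite moves of G0s2 in LIV and iBAT are thus values of 2 separate organs. Their difference alone was not tested.

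Other genes of the pathway were read in the late fast against 0 h from 4 lists. In LIV 10.6% of all genes were called. Of the other lipases and lipase controls in LIV, 0 higher and 3 lower of 13 tested were called, and 3 genes fell: Lipa, the lysosomal lipase (-0.56; 85.3 ± 3.23 CPM at 0 h, n = 3, and 61.6 ± 13.4 late, n = 6), Ces1g (-0.51) and Aadac (-0.34). The list's median log2FC was -0.19, beside 0.01 for all genes. The droplet coat and formation list had 0 higher and 1 lower of 15 in LIV (median -0.10), and the gene was Acsl3, a fatty acid ligase of budding droplets (-0.79; 38.03 ± 7.21 CPM at 0 h, n = 3, and 23.7 ± 4.83 late, n = 6). Hormonal control of lipolysis had 0 higher and 0 lower of 11 (median 0.19), and the fasting indicators 0 higher and 1 lower of 10 (median -0.04), with Fasn, the fatty acid synthase, at -1.85 (769 ± 329 CPM at 0 h, n = 3, and 231.8 ± 145.1 late, n = 6).

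Over the 4 lists together brown fat had the most calls, and it also had the most of all genes called in the late fast, at 20.9% against 15.3% in STM, 11.2% in BRN and 10.6% in LIV. Of the other lipases, 4 higher and 2 lower of 11 were called (median 0.22, beside -0.07 for all genes). Pnpla3, a relative of Pnpla2, fell by 1.78 on the log2 scale (779 ± 309.6 CPM at 0 h, n = 3, and 243 ± 78.9 late, n = 5), while Abhd12 (0.80) and Ces1f (1.11) rose. The droplet list had 3 higher and 1 lower of 15 (median 0.25): Cidea, the brown fat relative of Cidec, rose by 0.66 (1757 ± 303 CPM at 0 h, n = 3, and 2996 ± 958 late, n = 5) and Tmem159 by 0.74, and Acsl3 was at -1.13. Hormonal control had 2 higher and 2 lower of 15 (median 0.08), with Hcar2, a ketone body receptor that restrains lipolysis, at 1.52 (5.33 ± 1.63 CPM at 0 h, n = 3, and 16.6 ± 10.3 late, n = 5) and the insulin receptor Insr at -0.81. The fasting indicators had 1 higher and 3 lower of 8 (median -0.63), with Angptl4 at 1.75 and Fasn at -1.46. Cpt1a was called at -0.96 although its CPM overlapped (17.7 ± 3.55 CPM at 0 h, n = 3, and 16.99 ± 12.47 late, n = 5), with late libraries from 2.53 to 28.4.

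In stomach, where 15.3% of all genes were called, the other lipases had 1 higher and 1 lower of 13 called (median 0.05, beside 0.00 for all genes), with Ddhd2 at 0.74 and Lipa at -0.99. The droplet list had 0 higher and 2 lower of 16 (median -0.08): Plin3, a coat protein with wide expression, fell (-0.59; 65.5 ± 6.06 CPM at 0 h, n = 3, and 48.7 ± 5.33 late, n = 6), as did Acsl3 (-0.96). Hormonal control had 1 higher and 0 lower of 15 (median 0.36), with Npr1, the natriuretic peptide receptor, at 1.42. The fasting indicators had 3 higher and 2 lower of 8 (median -0.35), with Pdk4 at 1.90 (14.3 ± 7.34 CPM at 0 h, n = 3, and 60.4 ± 21.5 late, n = 6) and Fasn at -0.86.

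In the brain organs few of these genes passed, and the share of all genes called was 11.2% for BRN, 1.95% for OB, 0.344% for CBL and 0.0596% for BST. Whether any list differed from all genes was not tested. OB had 0 higher and 1 lower of 10 lipases (Ces1d, -2.79), and none of the 14 droplet, 13 hormonal and 8 fasting indicator genes. BRN had 3 higher and 0 lower of 14 droplet genes, Hsd17b11 (1.09), Aup1 (0.77) and Tmem159 (0.83), 0 higher and 1 lower of 14 hormonal genes (Acvr1c, -1.17), and none of 10 lipases and 8 indicators. The only gene called in CBL and in BST was Angptl4, which inhibits lipoprotein lipase: it rose by 1.42 in CBL (1.37 ± 0.112 CPM at 0 h, n = 3, and 3.72 ± 1.34 late, n = 6) and by 1.25 in BST (1.64 ± 0.367 CPM at 0 h, n = 3, and 3.89 ± 0.651 late, n = 6). No gene of the 4 lists was called in pgWAT or psWAT, where edgeR called at most 1 gene of the whole table. In every organ Hilpda, which inhibits Pnpla2, stayed uncalled, with log2FC from 0.01 in BST to 0.58 in BRN. The adrenergic receptor Adrb3 (-0.55 to 0.74) and the phosphodiesterase Pde3b (-0.37 to 0.08) were not called in any organ where they were tested.

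The genes whose levels ran most like each member were ranked by Pearson r over the 54 means of organ and time, with the other members left out, among 20621 genes. These points share mice, and libraries of the same organ, so that r mostly reflects levels between organs. Pnpla2 was nearest to C1qtnf9 (0.985), Ifi27 (0.975) and Aqp7 (0.975), Lipe to Aqp7 (0.987), Adig (0.986) and Tusc5 (0.986) and Mgll to Dgat2 (0.889), Mccc2 (0.881) and Gm11837 (0.873). Abhd5 was nearest to Rbms2 (0.960), Cavin2 (0.958) and Cd151 (0.958), and G0s2 to L3hypdh (0.972), Mrap (0.971) and Nrg4 (0.969). Among the coat genes, Plin1 was nearest to Adipoq (0.995), A530016L24Rik (0.994) and Aqp7 (0.994), Plin2 to Tmed5 (0.970), Ctcflos (0.969) and Mrap (0.967), Plin4 to Dpep1 (0.945), Lpl (0.940) and Cfd (0.940) and Plin5 to Slc25a20 (0.970), Coasy (0.962) and Acadvl (0.955). Cidec was nearest to Fabp4 (0.994), Cfd (0.993) and Cd36 (0.991). Mgll had the lowest of the 10 best values. Within liver, over 18 libraries that share fasting times and lanes and among 14023 genes, Plin2 was nearest to Gid8 (0.919), Gm4735 (0.911) and Rpl7l1 (0.908), and G0s2 to Gm3571 (0.840), Mis12 (0.834) and Ccng1 (0.824). Plin4 there was nearest to Fam209 (0.865), Gm15889 (0.857) and Snhg3 (0.816) and Plin5 to Cxcr4 (0.849), Dclre1b (0.795) and Dnajc18 (0.763).

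Promoters are shown for the genes that fell together in liver, Plin2 and G0s2, as the 250 bases before the start in the RefSeq promoter table (GRCm38.p6), where all 10 genes matched 14 promoters. The sequences below are read 5′ to 3′ on the gene's own strand, which is the minus strand for both (Plin2 chr4:86670060-86670309, G0s2 chr1:193273189-193273438). Capitals mark the match to a direct repeat of AGGTCA with 1 base between the copies, allowing 2 mismatches, and G0s2 has none.
Plin2: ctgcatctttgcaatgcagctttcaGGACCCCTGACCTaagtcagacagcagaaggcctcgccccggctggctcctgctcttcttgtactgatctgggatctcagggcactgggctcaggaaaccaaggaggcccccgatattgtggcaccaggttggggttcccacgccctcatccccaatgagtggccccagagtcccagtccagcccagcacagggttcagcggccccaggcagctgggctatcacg
G0s2: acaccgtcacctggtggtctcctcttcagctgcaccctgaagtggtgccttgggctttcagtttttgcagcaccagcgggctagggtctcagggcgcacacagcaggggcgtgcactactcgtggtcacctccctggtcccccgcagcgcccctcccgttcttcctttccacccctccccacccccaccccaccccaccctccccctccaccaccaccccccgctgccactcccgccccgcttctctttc

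On both strands, the AGGTCA repeat was found in 3.24% of all 32851 promoters of the table, and of the 10 genes only in Plin2, at chr4:86670272-86670284 with 2 mismatches. CACGTG was in 6.02% of promoters and in those of Lipe and Mgll, and TGTTTAC in 3.17%, again with Lipe and Mgll. TGACGTCA, the cyclic AMP response element, was in 1.55% and in no promoter of the 10 genes. These are matches of letters in a window and nothing about binding was measured.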

How the data were processed

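Libraries of mRNA from 9 organs of 18 mice were made and sequenced in pairs by the authors, who aligned the reads to GRCm38 with TopHat2 2.1.1 and counted them over Gencode M16 genes with HTSeq 0.9.1. The deposited values are counts, raw and unfiltered. The 10 members and all lists were chosen with earlier results of these data known. Within each organ, genes reaching the CPM of 10 counts in the median library in at least 3 libraries were fitted with edgeR 4.0.16 in R 4.3.3 (TMM factors, robust quasi-likelihood F test), and p was adjusted by Benjamini-Hochberg over all genes of a comparison, with calls under 0.05. Alternatives used DESeq2 1.42.0, other scaling (RLE factors, totals), no filter, all libraries, a replicate block, a lane term, another fed group, fewer times, a length trend and leaving out each library. Lengths and coordinates are from Gencode M21. Named genes of other lists are among the 3 per list and organ with the smallest adjusted p among those called, plus Hilpda, Plin3, Adrb3 and Pde3b. Most alike genes are the 3 with the highest r of log2 (normalized CPM + 0.5), among genes with a mean of at least 1 CPM in an organ. The code was tested on simulated data.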

Additional observations from a re-analysis of the deposited data

Results flagged for a closer look

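Mgll and Plin4 stood out because every late library lay above every 0 h library in some organs and below in another. This was read on CPM from library totals. Divided by the TMM factors of the fits, the groups overlap for Mgll in STM and for Plin4 in LIV and pgWAT, so that neither gene keeps the opposite pattern. Mgll was higher late in STM, with a log2FC of 0.31 (edgeR adjusted p = 0.203), and lower late in pgWAT, at -0.84 (adjusted p = 0.101). Plin4 was higher late in BRN (1.44), STM (1.33) and LIV (1.53; adjusted p = 0.104) and lower late in pgWAT (-0.90, written -0.9 with 1 decimal; adjusted p = 0.230). Lane ran along with time in STM, LIV and pgWAT. The late fast effect in STM against LIV was tested and called neither gene, at 0.43 for Mgll and -0.20 for Plin4. STM or LIV against pgWAT alone was not tested, nor was BRN against the others. The nearest test, liver against the mean of the fat depots, gave 2.24 for Plin4 (adjusted p = 0.117) and 0.54 for Mgll (adjusted p = 0.812).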

How the results depend on the processing

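The counts of members called by edgeR moved with the settings, each given as organ, comparison, and the count before and after. Changes by a factor of up to 1.5 are given for DESeq2 only. Calls over all genes moved with the settings too: with DESeq2 they went from 0 to 2053 in psWAT joint and from 1 to 1191 in pgWAT late. Where no share of all genes is given, here and below, a changed count is not a result about the members. Asking also for an absolute log2FC over 1 gave OB late 1 to 0 (beside 0.173% of all genes) and BRN late 2 to 1 (5.14%). It gave STM late 2 to 1 (7.09%), LIV late 2 to 1 (1.66%) and iBAT late 4 to 0 (9.6%). With DESeq2 they were BRN daytime 0 to 1, BRN joint 0 to 1, CBL late against daytime 0 to 1, CBL joint 0 to 1, BST joint 0 to 1, STM late against daytime 1 to 2, LIV late 2 to 4, LIV daytime 1 to 2, LIV late against daytime 0 to 2, LIV joint 1 to 4, iBAT late against daytime 1 to 3, pgWAT late 0 to 1, pgWAT joint 0 to 1, psWAT joint 0 to 9 and late fast effect, liver against fat 0 to 1, and also STM late 2 to 3, iBAT late 4 to 5 and perigonadal against subcutaneous white fat 9 to 10. With no filter on low counts they were OB late 1 to 2, OB joint 1 to 2, BRN daytime 0 to 1, BRN joint 0 to 1, CBL late against daytime 0 to 1, CBL joint 0 to 2, BST late 0 to 1, BST joint 0 to 1, STM late 2 to 1, LIV late 2 to 4, LIV daytime 1 to 4, LIV late against daytime 0 to 3 and LIV joint 1 to 5. Library totals alone gave BRN late 2 to 1, LIV daytime 1 to 0, LIV late against daytime 0 to 1, LIV joint 1 to 2, iBAT daytime 1 to 0 and iBAT late against daytime 1 to 2, and RLE factors iBAT late against daytime 1 to 2.

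With the lane term the counts went OB late 1 to 0, BRN late 2 to 0, STM late 2 to 0, STM late against daytime 1 to 0, STM joint 1 to 0, LIV late 2 to 0, LIV daytime 1 to 0 and LIV joint 1 to 0. With all 18 libraries they went BRN late 2 to 0 and STM late 2 to 1. With 0 h and 2 h together as the fed group they went OB late 1 to 0 and BRN late 2 to 1, and with only 0 h, 18 h and 22 h in the fit OB late 1 to 0, BRN late 2 to 0 and STM late 2 to 1. Taking out the exonic length trend gave iBAT late 4 to 1. The replicate block, which pairs libraries of the same replicate number, gave iBAT late against daytime 1 to 2.

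Other settings were chosen after seeing the data. The adipocyte marker level as a covariate gave STM late 2 to 1, STM late against daytime 1 to 0, STM joint 1 to 0, iBAT daytime 1 to 0, iBAT late against daytime 1 to 2, iBAT joint 4 to 2, pgWAT late 0 to 1 and psWAT daytime 0 to 1, and 18 h alone iBAT late 4 to 0. Leaving out each library in turn, the lowest and highest counts were OB late 0 to 1, OB joint 1 to 2, BRN late 0 to 3, BRN daytime 0 to 1, BRN late against daytime 0 to 2, BRN joint 0 to 2, CBL late against daytime 0 to 2, CBL joint 0 to 2, STM late 0 to 2, STM late against daytime 0 to 1, STM joint 0 to 1, LIV late 1 to 3, LIV daytime 0 to 1, LIV late against daytime 0 to 2, LIV joint 1 to 2, iBAT late 2 to 5, iBAT daytime 0 to 1 and iBAT late against daytime 0 to 5.

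Some log2FC changed sign. With library totals, Cidec in brown against white fat was -0.25. For the difference in late fast effect between brown and white fat, Plin2 was 0.13 with totals, 0.0245 with DESeq2 and 0.0977 with the animal as a block. Between pgWAT and psWAT, Mgll was -0.0172 and G0s2 -0.17 with totals, and G0s2 was -0.0155 with DESeq2. Without the pgWAT library at 22 h, replicate 2, a setting chosen after seeing the data, Plin4 there was 0.14, and Plin2 between liver and fat -0.0094. Without the psWAT library at 12 h, replicate 3, these were -0.1587 and 0.0656. With the animal block Plin4 between STM and LIV was 0.0134. Library totals shifted the median of all genes in the late fast in BRN by -0.17, STM by 0.15, iBAT by 0.14 and pgWAT by -0.11. The cause of these changes was not tested.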

Other observations

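Plin4 levels were also read side by side in CBL and BST, with libraries of the same time and replicate number taken as the same mouse. In CBL its CPM in mice 1 to 3 of each time were 4.46, 5.48 and 6.09 at 0 h, 10.04, 20.2 and 24.6 at 2 h, 17.8, 7.05 and 5.58 at 8 h, 17.1, 9.21 and 10.9 at 12 h, 4.55, 10.4 and 9.91 at 18 h, 13.6, 21.2 and 23.1 at 22 h. In BST the same mice, in the same order, had 14.8, 16.7 and 16.95 at 0 h, 28.4, 53.5 and 72.0 at 2 h, 43.1, 23.3 and 14.1 at 8 h, 46.1, 28.6 and 38.6 at 12 h, 10.8, 21.8 and 31.3 at 18 h, 40.4, 45.7 and 65.3 at 22 h. Every mouse at 2 h and at 22 h was above all 3 at 0 h in both organs, and at 8 h the mouse numbered 1 was the highest in both. No test was made on this pattern.

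The left-out iBAT library at 22 h, replicate 1, held G0s2 at 1299 CPM, Plin5 at 254 and Cidec at 1278. Its G0s2 lay near the retained libraries at 22 h (1643 and 1403 CPM), and its Plin5 near those at 18 h (292, 253 and 359 CPM). The left-out psWAT library at 22 h, replicate 2, held Pnpla2 at 243 CPM and Cidec at 522, within the range of its organ.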
